A study of Mus musculus with 9 samples.

Results

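Molecular chaperones and heat shock genes were examined in the jejunum of 9 mice. The genes were those whose array symbol began with Hsp followed by a letter or digit (Hspg left out), with Dnaj, or with Cct followed by a digit from 2 to 8. Of 33012 probes on the array, 17302 of which carried a gene symbol, 67 probes met this rule, and they stood for 58 of 15674 genes. The mice were male OF1 mice, an outbred stock, aged 7 weeks and taken from generation 3 of a feeding trial in which each line had received 1 of 3 diets. The diets are named feed B, feed K and feed G, their compositions were not given per letter, and none was treated as a control. Each feed had 3 mice (feed B mice 7, 8 and 10, feed K mice 1, 3 and 4, feed G mice 4, 8 and 11), and RNA of 1 mouse was hybridised to 1 Applied Biosystems array read by chemiluminescence. The time of day at which the mice were sampled was neither recorded nor randomised between feeds.

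Chaperones help other proteins to reach and keep their folded state. HSP70 proteins bind short stretches of unfolded chains and work with J-domain proteins of the DNAJ families, which start their ATP cycle, while HSP110 proteins exchange the nucleotide. HSP90 acts later on selected clients, the barrel-shaped chaperonins (HSP60 with HSP10 in mitochondria, and TRiC, built of CCT subunits, in the cytosol) enclose whole chains, and small heat shock proteins hold unfolded proteins without ATP. Heat shock factors bind repeated GAA and TTC units in the promoters of many of these genes, whereas the chaperones of the endoplasmic reticulum (ER) answer to the unfolded protein response. The intestinal epithelium secretes and digests much protein and renews itself continuously.

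Some symbols on the array are older ones: 8 of the 58 members have another current name, among them Hsp105 (Hsph1), Hspca (Hsp90aa1), Hspcb (Hsp90ab1), Hspa9a (Hspa9) and Hspa5bp1 (Tmem132a, a transmembrane protein named for binding Hspa5 and no HSP70 itself). The stress-inducible genes Hspa1a and Hspa1b and the small heat shock gene Hspb6 had no probe under these symbols and were not analysed here. Promoter elements are shown first, because they set out which members share a regulatory sequence. RefSeq start-site windows (GRCm38.p6, 250 bases before to 50 bases after a start) were given for 46 of the members, in 63 windows. Hspa8, Hspca, Hspcb, Hspa9a and Cct4 were among the members without a window, so they were not searched. Runs of 3 alternating GAA and TTC units with 2 bases of any kind between units occurred in 0.603% of all 32851 windows, and in 6 of the 63 member windows (9.52%), those of Hspd1, Hspe1, Hsph1 and Dnajb6. Runs of 2 units (TTCNNGAA or GAANNTTC, which also lie within any run of 3) occurred in 15.1% of all windows and in 16 of the 63 member windows (25.4%), which belonged to 14 genes. The ER stress response element (CCAAT and CCACG with 9 bases between, on either strand) occurred in 0.119% of all windows and in 2 of the 63 (3.17%), those of Hspa5 and Dnajc3. Some of these windows overlap, since a gene can have several starts. A match describes letters and is not evidence of binding. Below, capitals mark the element.
Hspd1, chr1:55088044-55088091, minus strand: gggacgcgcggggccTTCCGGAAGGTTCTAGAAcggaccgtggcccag
Hspe1, chr1:55088044-55088091, plus strand: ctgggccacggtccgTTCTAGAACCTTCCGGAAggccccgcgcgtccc
Hsph1, 2 units, chr5:149636347-149636384, minus strand: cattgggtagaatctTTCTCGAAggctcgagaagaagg
Hsph1, 3 units, chr5:149636280-149636308, minus strand: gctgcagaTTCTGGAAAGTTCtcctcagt
Dnajb6, chr5:29735837-29735879, plus strand: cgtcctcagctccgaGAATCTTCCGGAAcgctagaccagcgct
Hspb1, 2 separate runs of 2 units, chr5:135887787-135887844, plus strand: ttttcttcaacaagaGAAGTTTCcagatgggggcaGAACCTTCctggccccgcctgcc
Hspa5, ER stress response element, chr2:34772010-34772058, plus strand: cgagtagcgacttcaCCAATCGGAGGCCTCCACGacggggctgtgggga
Dnajc3, ER stress response element, chr14:118937812-118937860, plus strand: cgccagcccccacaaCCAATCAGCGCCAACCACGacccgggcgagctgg

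Hspd1 and Hspe1 lie head to head, so their 18-base element is a single stretch of DNA read on opposite strands. It began 144 bases before 1 of the 2 annotated Hspd1 starts and 89 bases before the Hspe1 start, and it lay outside the window of the other Hspd1 start. Hsph1 also had 2 starts: the run of 2 units began 54 bases before one and 33 before the other, and the run of 3 lay after both. The windows of Dnajb1 held neither kind of run.

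The values are log2 signals after quantile normalisation of the 9 arrays, averaged over the probes of a gene. A probe counted as detected on an array when its signal-to-noise ratio was at least 3. Since the arrays differed in sensitivity (33.7% to 48.1% of all probes detected per array, with feed B mice 7 and 8 lowest), the members were also counted per array: 41 to 47 of 58 were detected. Of 12 enterocyte markers listed, 9 were found on the array, and all 9 were detected on every array. Fabp6, a bile acid binding protein of ileal enterocytes, stood apart in 3 mice: its log2 signal was 15.81 in feed B mouse 7, 17.84 in feed B mouse 10 and 19.51 in feed G mouse 11, against 12.19 or less in the others. For several named genes, differences between feeds are given with and without those mice (feed B then keeps 1 mouse). In whole tissue, fewer cells of a type and less RNA per cell cannot be told apart. Nothing in the labels named a batch.

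Of the 58 members, 38 (65.5%) were detected on all 9 arrays, compared with 37.6% of all genes on the array. A further 8 were detected on 3 to 8 arrays, 8 on 1 or 2, and 4 (Dnajb8, Dnajc6, Hspa12b and Hspa1l) on none. Members detected on 2 or fewer arrays included the testis-expressed Hspa1l, Dnajb8, Dnajb3 and Cct6b and the muscle gene Hspb3. The rest were Dnajb5, Dnajc2, Dnajc5b, Dnajc6, Dnajc9, Dnajc11 and Hspa12b. Whether detection followed the organ a gene is mainly known from was not tested. The median signal-to-noise ratio of the 38 members was 27.1 for feed B, 45.1 for feed K and 52.5 for feed G, in the same order as the share of probes detected on the arrays of these feeds. The 46 members detected on at least 3 arrays were tested between feeds. Only 2 of these 46 (Hspa5bp1 and Dnajb7) were undetected on every array of at least 1 feed.

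The subunits of the cytosolic chaperonin that carry Cct symbols varied little between mice. TRiC folds actin, tubulin and other cytosolic proteins in a ring of related subunits, and 7 members (Cct2, Cct3, Cct4, Cct5, Cct6a, Cct7 and Cct8) were detected on every array. Its remaining subunit, Tcp1 (CCT1), does not meet the symbol rule and was less even, with an SD of 0.40 and a 2.31-fold range over the 9 mice (SD 0.70 under median scaling and 0.63 with the authors' values). Cct2 had log2 signals of 14.33, 14.21 and 14.17 on feed B, 14.10, 13.97 and 14.31 on feed K, and 14.24, 14.23 and 14.16 on feed G. Its values overlapped between all feeds, with an SD of 0.11 and a 1.28-fold range over the 9 mice. Cct3 ranged 1.27-fold (SD 0.14), Cct4 1.39-fold (SD 0.16), Cct8 1.46-fold (SD 0.16), Cct7 1.45-fold (SD 0.17), Cct5 1.53-fold (SD 0.19) and Cct6a 1.78-fold (SD 0.26). All 7 of these subunits stayed within a 2-fold range, a limit that 57.9% of the 5887 genes detected on all 9 arrays met. Among the 1658 of those genes with a mean log2 signal of at least 12, which all 7 subunits had, 70.4% met it. The median SD of the 7 subunits was 0.16, against 0.29 for all 5887 genes and 0.25 for the 1658. When the arrays were brought to the same median instead of the same distribution, which left all genes more variable, the median SD was 0.32 for the subunits and 0.44 for all genes, and with the authors' own normalised values it was 0.26 and 0.39. All 7 subunits had an SD below the median of all genes under each of the 3 scalings, but 3 of the 7 stayed within a 2-fold range under median scaling (24.8% of all genes) and 6 with the authors' values (36.7%). The mouse in which the subunits were lowest depended on the scaling: it was feed K mouse 3 for 6 of the 7 after quantile normalisation, feed B mouse 8 for all 7 under median scaling, and with the authors' values feed B mouse 8 for 3, feed K mouse 4 for 3 and feed B mouse 10 for 1. The testis-type subunit Cct6b was detected on 1 array.

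**Figure D1:**
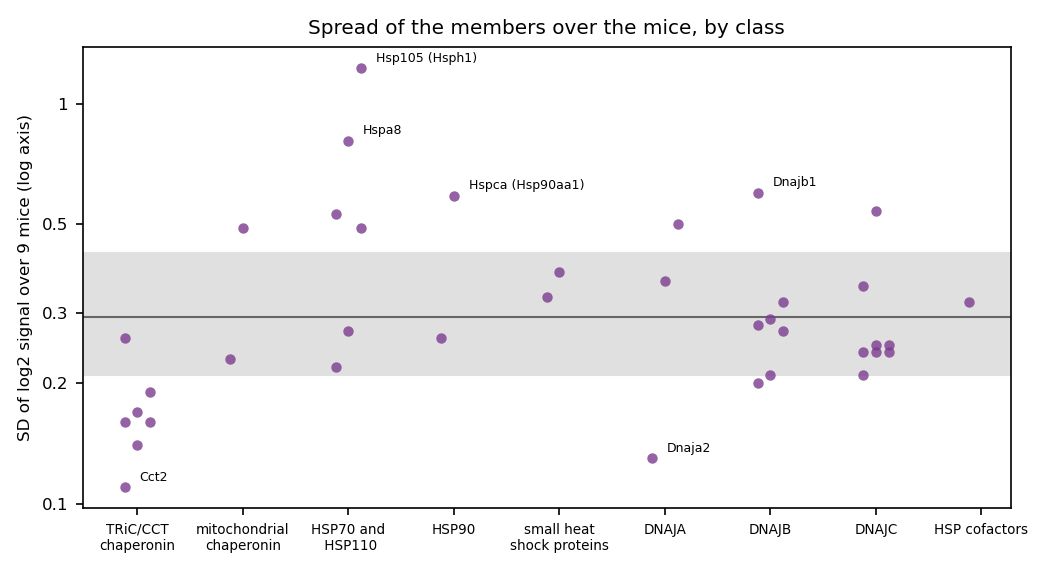
SD of log2 signal over the 9 mice (vertical log axis) of each of the 38 members detected on all arrays, by class. The line is the median SD over the 5887 genes that were detected on every array (0.29), with their middle 50% as a grey band (0.21 to 0.42). The 7 subunits from Cct2 to Cct8 lie under the line (Tcp1, no member, is not plotted and had an SD of 0.40), and Hsp105 (1.23) and Hspa8 (0.81) are the most variable members.

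Over all 38 members the median SD was 0.26, and 25 of the 38 kept within a 2-fold range. Of the 38, 10 had an SD below 0.21, the limit of the lowest 25% of the 5887 genes, 6 of them CCT subunits, and 9 had an SD above 0.42, the limit of the highest 25%. Apart from CCT subunits, Dnaja2, a cytosolic partner of HSP70, was the most even (11.98 to 12.32, SD 0.13). Under median scaling its SD was 0.41, near the median of all genes (0.44), and with the authors' values it was 0.32 (0.39). The widest spread was that of Hsp105 (SD 1.23, 16.6-fold range), Hspa8 (SD 0.81, 6.68-fold), Dnajb1 (SD 0.60, 3.67-fold), Hspca (SD 0.59, 3.23-fold) and Dnajc8 (SD 0.54, 3.44-fold). The spread of Dnajc8, whose product is tied to RNA splicing, came with a disagreement of its probes. Its probe detected on 9 arrays ranged 1.64-fold (SD 0.27), and its other probe, detected on 4 arrays, 10.9-fold (SD 1.10). In the same way the probe of Dnaja1 that was detected on 9 arrays had an SD of 0.31 and the one detected on 2 arrays an SD of 0.95. The probe detected on 9 arrays measured 15.05, 15.32 and 15.28 on feed B, 14.93, 14.84 and 15.16 on feed K, and 15.44, 15.26 and 15.88 on feed G. On this probe feed G lay above feed K without overlap, whereas the averaged values of Dnaja1 overlapped (feed G minus feed K 0.09). Hspa12a, a distant HSP70 relative, had a probe detected on no array (SD 0.56) and one detected on 5 (SD 1.28).

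**Figure D2:**
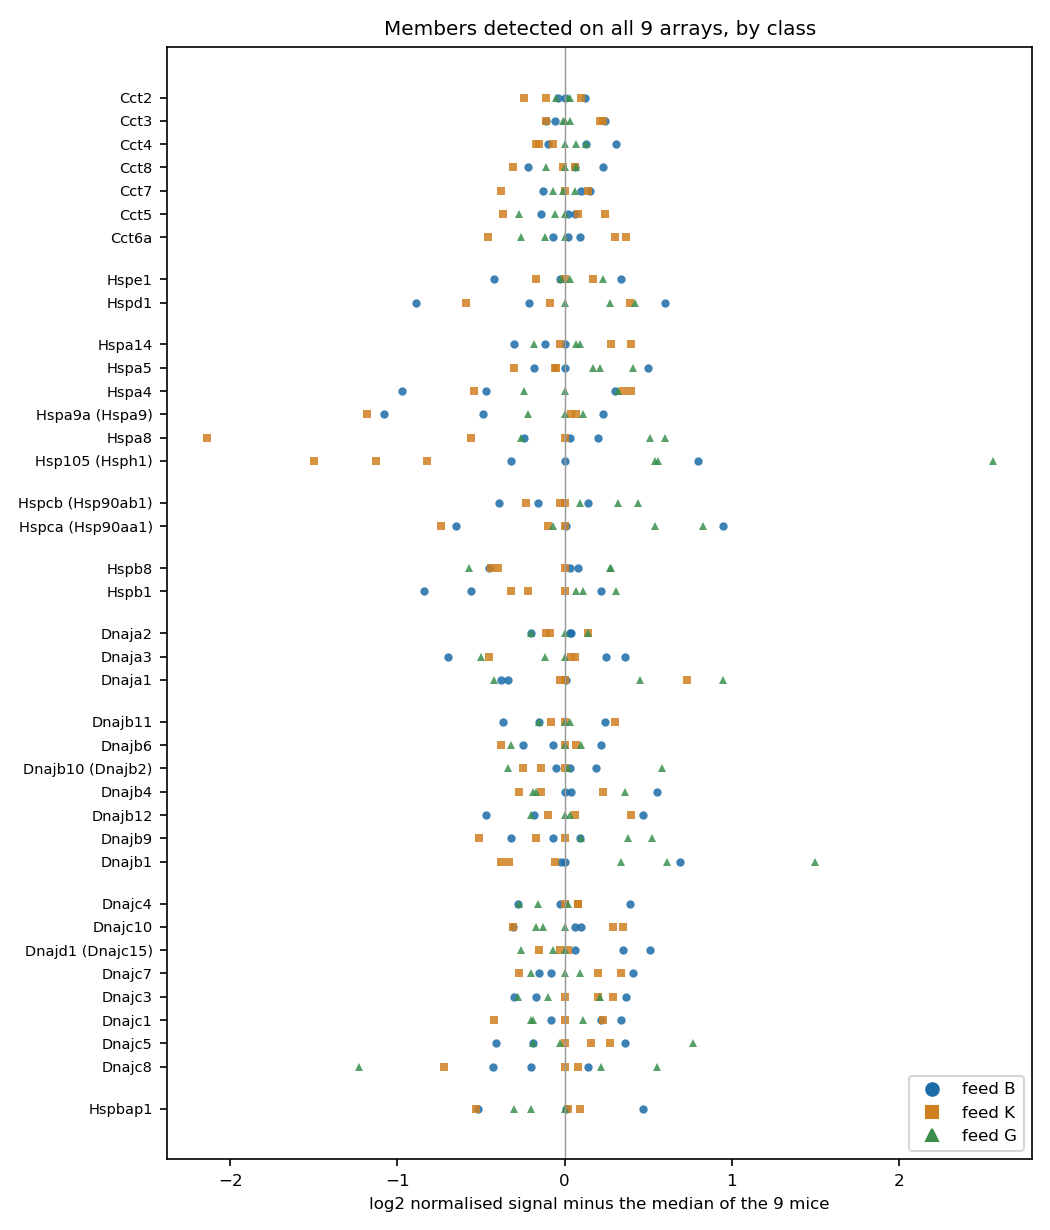
Log2 normalised signal of each of the 38 members detected on all 9 arrays, minus the median of the 9 mice (horizontal axis), 1 point per mouse, grouped by class and ordered by SD within a class. The CCT rows are narrow, the Hsp105 row runs from the 3 feed K mice at the low end to feed G mouse 11 at the high end, and a single feed K mouse is far to the left for Hspa8.

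The mitochondrial chaperonin and a few other members varied between mice on the same feed. Hspd1, the HSP60 subunit that folds imported proteins, had log2 signals of 12.96, 12.28 and 13.77 on feed B, 13.56, 13.08 and 12.58 on feed K, and 13.17, 13.44 and 13.59 on feed G. Its co-chaperonin Hspe1 (HSP10) measured 13.22, 12.83 and 13.59 on feed B, 13.42, 13.08 and 13.25 on feed K, and 13.23, 13.48 and 13.28 on feed G. Both were lowest in feed B mouse 8 and highest in feed B mouse 10, 2 mice on the same diet. The low mouse was the same under median scaling and with the authors' values, but the highest was then feed G mouse 11 for Hspd1 and feed G mouse 8 for Hspe1. The values of the pair were correlated over the 9 mice (Pearson's r = 0.84, exact permutation p = 0.00417, adjusted p = 0.0375 over 9 gene pairs; Spearman's rho = 0.82, exact p = 0.0108, adjusted p = 0.0969). With feed means subtracted, r was 0.83. Without the 2 mice farthest from the Hspd1 median, feed B mice 8 and 10, r was 0.55 (exact permutation p = 0.203, n = 7), so the relation rested on those mice.

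The size of the swing depended on the Hspd1 probe. Of its 3 probes, all detected on every array, 1 ranged 1.58-fold over the mice, another 2.19-fold and the third 6.47-fold. All 3 were lowest in feed B mouse 8 and highest in feed B mouse 10. Hspa9a, the mitochondrial HSP70, was low in the same mouse (12.04) and lowest in feed K mouse 4 (11.94), and ranged up to 13.35 in feed B mouse 10. Hspca, the stress-responsive cytosolic HSP90, showed 12.81 in feed B mouse 8, 12.72 in feed K mouse 4 and 14.41 in feed B mouse 10. Hspa4, an HSP110 relative, was also lowest in feed B mouse 8 (9.98), while its highest value, 11.35, was in feed K mouse 1. Feed K mouse 3 held the lowest value of 13 of the 38 members (34.2%) and of 9.33% of the 5887 genes, but of none of the 38 under median scaling or with the authors' values, and 47.6% of the probes were detected on its array. Feed B mouse 8 held the lowest value of 10 of the 38 members (26.3%) and of 10.8% of the 5887 genes, and its array detected the fewest probes (33.7%). The count was 26 under median scaling (43.1% of all genes) and 13 with the authors' values (13.8%). Feed K mouse 4, with 41.2% of probes detected, was lowest for 4 members (9.85% of all genes), for 3 under median scaling (8.39%) and for 16 with the authors' values (32.2% of all genes). The part of array sensitivity in these values was not tested.

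**Figure D3:**
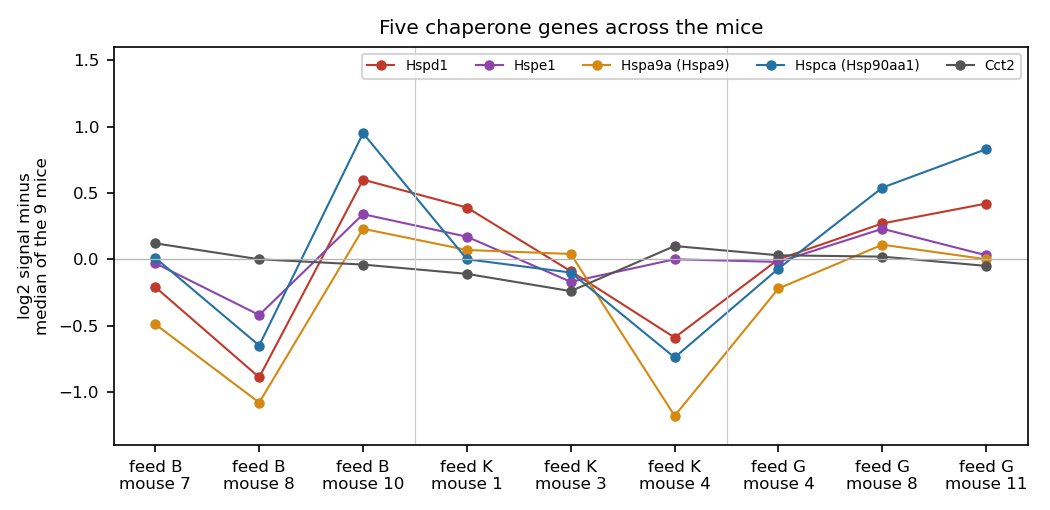
Log2 signal minus the median of the 9 mice (vertical axis) of Hspd1, Hspe1, Hspa9a, Hspca and Cct2 in each mouse (horizontal axis, feeds separated by vertical lines). The first 4 genes dip in feed B mouse 8 and peak in feed B mouse 10, and all of them but Hspe1 dip in feed K mouse 4, although with median scaling or the authors' values the highest mouse was another for each of the 4. Cct2 stays within 0.24 of its median.

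Of the other pairs known to act together, none passed the adjusted threshold over the 9 mice, and no test compared one pair with another. In the ER, Hspa5 (BiP, the HSP70 of this compartment) and Hsp90b1 (GRP94, listed as Tra1) had r = 0.68 over the 9 mice (exact permutation p = 0.0436, adjusted p = 0.0982; rho = 0.63, exact p = 0.076, adjusted p = 0.228), and r = 0.34 without the 2 mice farthest from the Hspa5 median (0.76 with feed means subtracted and 0.93 under median scaling). Hspa5 with its J-domain partner Dnajb11 had r = 0.40 (exact permutation p = 0.292, adjusted p = 0.438; rho = 0.33, exact p = 0.385, adjusted p = 0.615), and r = 0.12 without the 2 farthest mice (0.82 with feed means subtracted and 0.84 under median scaling). Hsp90aa1 with Hsph1 had r = 0.69 (exact permutation p = 0.0387, adjusted p = 0.0982; rho = 0.70, exact p = 0.0433, adjusted p = 0.195), which fell to 0.38 without feed B mouse 10 and feed G mouse 11, both high in Fabp6.

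Among CCT subunits, Cct2 with Cct5 had r = 0.75 (exact permutation p = 0.0193, adjusted p = 0.0866; rho = 0.57, exact p = 0.121, adjusted p = 0.271) and r = 0.53 without the 2 farthest mice (0.90 with feed means subtracted and 0.88 under median scaling). Cct3 with Cct4 had r = -0.52 (exact permutation p = 0.152, adjusted p = 0.273; rho = -0.32, exact p = 0.41, adjusted p = 0.615) and r = -0.39 without them. The small heat shock genes were set beside smooth muscle genes, since muscle is rich in small heat shock proteins. Hspb8 with the muscle actin Actg2 had r = -0.05 (exact permutation p = 0.894, adjusted p = 0.938; rho = 0.08, exact p = 0.843, adjusted p = 0.843), and r = -0.55 without the 2 farthest mice. Hspb1 with desmin (Des) had r = 0.03 (exact permutation p = 0.938, adjusted p = 0.938; rho = 0.13, exact p = 0.744, adjusted p = 0.836), and r = -0.48 without them. Hspa8 with the clock output gene Dbp had r = -0.20 (exact permutation p = 0.591, adjusted p = 0.76; rho = -0.13, exact p = 0.744, adjusted p = 0.836), and r = 0.10 without them. Of the 9 pairs, Hspd1 with Hspe1 alone passed the adjusted threshold by Pearson's r and none did by rho.

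No member differed between feeds past an adjusted p of 0.05 in limma, whether over the 3 feeds or in any pair of feeds, and neither did any other gene (0.0% of 9652 tested in each of the 4 tests). The smallest adjusted p of a member over the 3 feeds was 0.729. Counts at an unadjusted p under 0.05 were made over the 44 members detected on at least 1 array of every feed, since a gene detected in 1 feed alone entered the test through the feed in which it was high. Over the 3 feeds there were 2 of 44 (Hsp105 and Dnajb1, 4.55%), against 4.4% of 8844 such genes. An exact permutation test was run on the ordinary F statistic, which differs from that of limma. The smallest possible p of this test is 0.00357, and it put 2 of the 44 members (4.55%) under 0.05, Hsp105 and Dnajd1. It put 486 of the 9556 genes tested with a value on all 9 arrays under 0.05. Between pairs of feeds, 1 member passed the unadjusted limit for feed K against feed B (5.28% of all such genes), none for feed G against feed B (4.76%) and 4 for feed G against feed K (4.1%). The 4 (Hsp105, Hspa8, Dnajb1 and Dnajb9) all had the higher signal on feed G, as 1.73% of such genes did. The median 95% interval of a member's difference, before adjustment, reached a factor of 1.51 to either side.

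Hsp105, an HSP110 protein that reloads HSP70 with ATP and is induced by heat, gave the largest difference. Its log2 signals were 9.82, 10.14 and 10.94 on feed B, 8.64, 9.32 and 9.01 on feed K, and 10.68, 10.70 and 12.70 on feed G. All feed K mice lay below all others, and feed G mouse 11 lay far above its fellows. Means were 10.30 ± 0.57 (SD, n = 3), 8.99 ± 0.34 and 11.36 ± 1.16. Feed G was above feed K by 2.37 on the log2 scale (5.16-fold, SE 0.56, 95% interval 1.09 to 3.65, limma, adjusted p = 0.96). Feed K differed from feed B by -1.31 (SE 0.56, limma, adjusted p = 0.786), and feed G from feed B by 1.06 (SE 0.56, limma, adjusted p = 0.879). These differences moved with the scaling. For feed K minus feed B the value was -0.92 under median scaling and -1.05 with the authors' values (limma, unadjusted p = 0.197 and 0.12). For feed G minus feed B it was 1.64 and 1.38 in the same order (limma, unadjusted p = 0.0352 and 0.049). The exact permutation p over the 3 feeds was 0.0107. The mice with the highest Hsp105, feed G mouse 11 and feed B mouse 10, also had the highest Fabp6. Without the 3 mice high in Fabp6 the difference of feed G from feed K was 1.70, with 2 feed G mice at 10.68 and 10.70 and Fabp6 at 8.10 and 8.96. The difference of feed G from feed B was then 0.55 and that of feed K from feed B -1.15.

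Dnajb1 (HSP40), the J-domain partner of stress-induced HSP70, followed the same order of feeds. It measured 10.22, 9.53 and 9.51 on feed B, 9.20, 9.15 and 9.47 on feed K, and 10.14, 9.87 and 11.03 on feed G. Feed K lay below both other feeds with no overlap, and feed G mouse 11 was again the highest. The difference of feed K from feed B was -0.48 (SE 0.34, limma, adjusted p = 0.845), and -0.10 under median scaling. The difference of feed G from feed K was 1.07 (2.11-fold, SE 0.34, 95% interval 0.31 to 1.84, limma, adjusted p = 0.96), and 0.73 without feed G mouse 11. Without the 3 mice high in Fabp6 it was 0.73 as well (limma, adjusted p = 0.691).

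Hspa8, the constitutive cytosolic HSP70 (HSC70), had log2 signals of 8.83, 9.10 and 9.27 on feed B, 8.51, 9.07 and 6.93 on feed K, and 9.58, 8.81 and 9.67 on feed G. The feeds overlapped, and feed K mouse 4 stood alone at the low end. Feed G minus feed K was 1.19 (SE 0.51, limma, adjusted p = 0.96), but 0.57 (limma, adjusted p = 0.999) without feed K mouse 4 and 1.03 (limma, adjusted p = 0.755) without the 3 mice high in Fabp6. Its signal-to-noise ratio ran from 3.92 to 22.9. Dnajb9 (ERdj4), an ER J-domain protein induced by the unfolded protein response, measured 12.15, 11.90 and 12.31 on feed B, 11.71, 12.22 and 12.05 on feed K, and 12.32, 12.60 and 12.74 on feed G. Here every feed G mouse was above every other mouse, which no longer held under median scaling or with the authors' values, and feed G minus feed K was 0.55 (SE 0.22, 95% interval 0.06 to 1.05, limma, adjusted p = 0.96). Without the 3 mice high in Fabp6 it was 0.46 (limma, adjusted p = 0.717).

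**Figure D4:**
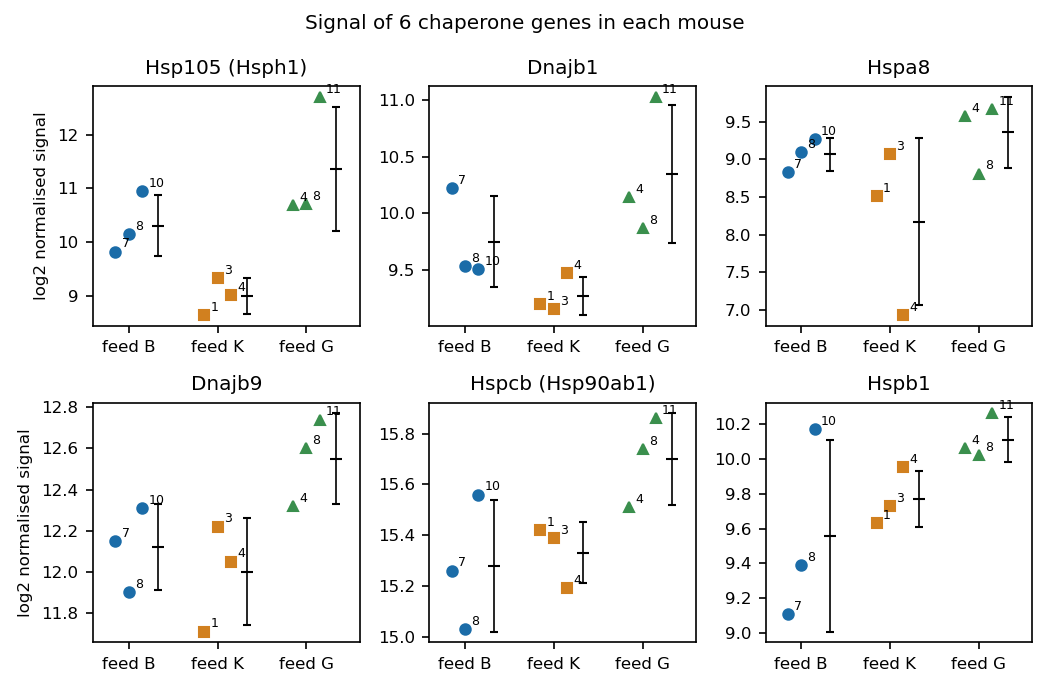
Log2 normalised signal (vertical axis) of 6 members in each mouse, by feed. Numbers are mouse numbers, and the black bars give the mean and SD of 3 mice. For Hsp105 and Dnajb1 all feed K mice lie under all feed G mice, and for Dnajb9 all feed G mice lie above all others, which held after quantile normalisation and not under the 2 other scalings.

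Hspa5bp1 was detected on the 3 feed G arrays and on no other. Its log2 signals were 5.64, 6.57 and 7.12 on feed B, 7.89, 6.67 and 8.22 on feed K, and 8.68, 7.91 and 7.73 on feed G. It thus entered the comparison through feed G alone, and its values are a description. With undetected signals set to the detection limit where that was higher, the mean of feed G was 3.09-fold that of feed B. For feed K the limit left the mean as measured (7.59), so it gave no lower bound for this comparison. The measured mean of feed G was 1.43-fold that of feed K (log2 difference 0.51, SE 0.51, limma). The values of these feeds overlapped, since feed K mouse 4 (8.22) lay above feed G mice 8 (7.91) and 11 (7.73). The arrays of feed B mice 7 and 8 were the least sensitive of the 9.

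Signals of feed G and feed K did not overlap for 7 of the 44 members (15.9%), and for 13.6% of all genes detected in every feed. All 7 were higher on feed G, a direction that 5.94% of such genes showed without overlap: Hsp105, Dnajb1, Dnajb9, Hspa5, Hspcb, Hspb1 and Cct4. Under median scaling, and likewise with the authors' values, the mean of feed G stayed the higher for all 7, but only Hsp105, Dnajb1 and Hspa5 remained without overlap. The constitutive HSP90 gene Hspcb measured 15.42, 15.39 and 15.19 on feed K and 15.51, 15.74 and 15.86 on feed G. Hspa5 measured 14.54, 14.30 and 14.55 on feed K and 14.81, 14.77 and 15.01 on feed G. The difference was 0.37 for Hspcb (SE 0.20, limma, adjusted p = 0.96) and 0.40 for Hspa5 (SE 0.22, limma, adjusted p = 0.96). Without the 3 mice high in Fabp6 these were 0.29 and 0.33. For feed K and feed B 3 members (9.24% of such genes) did not overlap, namely Hsp105, Dnajb1 and Dnajd1, all lower on feed K. For feed G and feed B the count was 2 (10.3% of such genes): Dnajb9, higher on feed G, and Dnajd1, lower. Dnajd1 (Dnajc15), a J-domain protein of the mitochondrial inner membrane, measured 12.57, 12.12 and 12.41 on feed B, 12.03, 11.91 and 12.08 on feed K, and 12.06, 11.99 and 11.80 on feed G, so that feed B was above both other feeds. Its difference of feed G from feed B was -0.41 (SE 0.19, limma, adjusted p = 0.858), but -0.11 with the authors' values and 0.14 under median scaling, where its direction turned. That of feed K from feed B was -0.36, -0.04 and 0.09 in the same order. Without the 3 mice high in Fabp6 the difference of feed G from feed B was smaller (-0.09), as was that of feed K from feed B (-0.11). Feed B mouse 8, the only feed B mouse then left, measured 12.12 and still lay above all feed K and feed G mice.

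**Figure D5:**
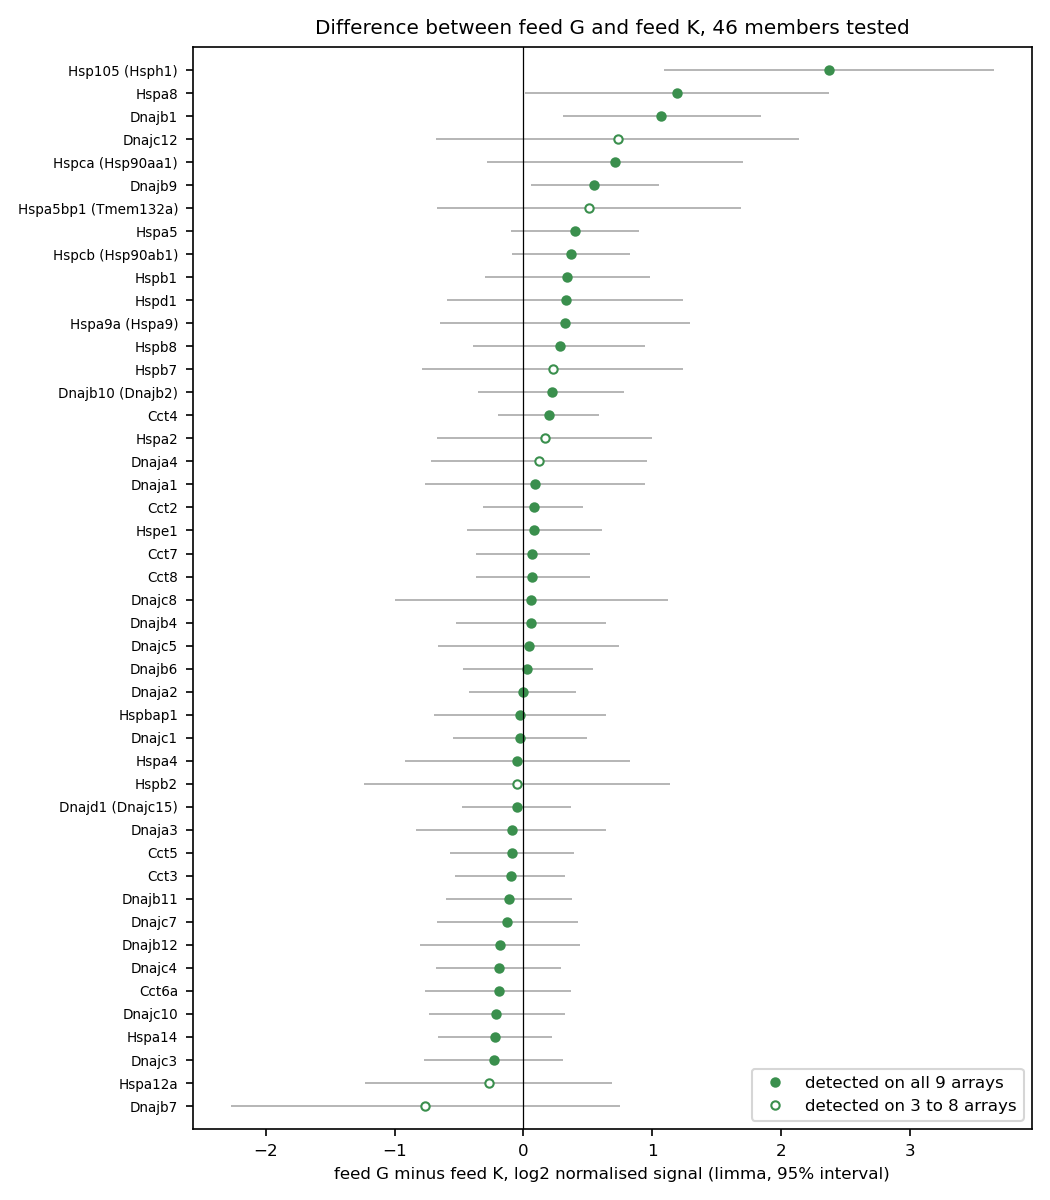
Difference of feed G from feed K in log2 normalised signal (horizontal axis) with its 95% interval from limma, for the 46 members tested; open points were detected on 3 to 8 arrays. Hsp105 (2.37), Hspa8 (1.19), Dnajb1 (1.07) and Dnajb9 (0.55) have intervals above 0 before adjustment, and CCT subunits lie near 0.

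By class, no difference between feeds passed the adjusted test for any gene. The classes count members only, which leaves out relatives such as Osp94 (Hspa4l), Stch (Hspa13) and Hsp90b1, whose array symbols miss the rule. For both HSP90 genes feed G exceeded feed K (median difference 0.54, under median scaling 0.74 and with the authors' values 0.70), and 49.1% of all genes did (63.9% and 58.2%). For 3 of the 4 small heat shock genes tested feed G exceeded feed B (median 0.33, then 0.88 and 0.62). For the 7 CCT subunits tested, feed G minus feed K ran from -0.19 to 0.20 with a median of 0.07 (0.18 under median scaling and 0.10 with the authors' values). Feed G minus feed B was negative for all 7 after quantile normalisation (median -0.04) and positive for all 7 under median scaling (0.50) and with the authors' values (0.28), so it had no settled direction. The median of all genes in this comparison was 0.06, 0.53 and 0.30 in the same order. For all 8 HSP70 and HSP110 genes tested the mean of feed G exceeded that of feed B (median difference 0.35, under median scaling 0.78 and with the authors' values 0.54, again for all 8). So did that of 57.1%, 88.3% and 78.8% of all genes in the same order. After quantile normalisation none of the 8 had an unadjusted p under 0.05. Hsp105 was under it with median scaling (limma, unadjusted p = 0.0352) and with the authors' values (limma, unadjusted p = 0.049). Of the 8, Hspa2 and Hspa12a were each detected on only 1 of the 3 feed B arrays. The 9 DNAJC genes tested had a median difference of feed G from feed K of -0.05, which turned to 0.06 under median scaling and 0.05 with the authors' values, and the 8 DNAJB genes one of 0.05 (0.19 and 0.14). Over all 46 members the median difference of feed G from feed K was 0.07 and over all genes -0.01.

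The small heat shock genes Hspb1 and Hspb8 were detected on all arrays, Hspb7 on 8 and Hspb2 on 6. Hspb1 (HSP27), which binds unfolded proteins and actin filaments, measured 9.11, 9.39 and 10.17 on feed B, 9.63, 9.73 and 9.95 on feed K, and 10.06, 10.02 and 10.26 on feed G. Its feed B values alone spanned those of feed K and those of 2 of the 3 feed G mice. All 10 smooth muscle markers had a probe, 8 of them detected on all arrays, and their summed signal ran from 120000 to 139000 on feed B, from 115000 to 150000 on feed K and from 88100 to 145000 on feed G, with overlap of all feeds.

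Genes of the same pathways whose symbols miss the rule passed no adjusted test. Osp94 (Hspa4l), an HSP110 relative, was detected on all 9 arrays. It measured 8.99, 8.97 and 7.79 on feed K and 9.46, 9.40 and 10.64 on feed G, without overlap. The difference was 1.25 (SE 0.51, limma, unadjusted p = 0.038, adjusted p = 0.96). For Stch (Hspa13), an HSP70 relative, it was 0.40 (SE 0.21, limma, adjusted p = 0.96), with overlap. Of 28 heat shock factors and co-chaperones tested, none passed an adjusted p of 0.05. At an unadjusted p under 0.05 stood Unc45a, a myosin and HSP90 co-chaperone, for feed K above feed B (1.47, SE 0.62, limma, adjusted p = 0.786), Trap1, the mitochondrial HSP90, for feed G above feed B (0.56, SE 0.24, limma, adjusted p = 0.858), and Chordc1, an HSP90 co-chaperone, for feed G above feed K (0.83, SE 0.36, limma, adjusted p = 0.96). The shares of all genes were 5.28%, 4.76% and 4.1% for these pairs. Unc45a was detected on only 1 of the 3 feed B arrays and Trap1 on 2, so their feed B means include undetected signals. Fkbp5, an HSP90-binding immunophilin induced by glucocorticoids, was detected on the 3 feed G arrays and on no other, so its values are a description: means were 7.47 on feed B, 7.00 on feed K and 9.22 on feed G. Chordc1 was highest in feed G mouse 11 (11.79) and then in feed B mouse 10 (11.04), as Hsp105 was, and without the 3 mice high in Fabp6 its difference was 0.51 (limma, adjusted p = 0.717). The heat shock factor genes Hsf1 and Hsf2 were detected on 2 arrays and on none. Of 22 ER stress and folding genes tested, none passed the adjusted threshold. Herpud1, which takes part in ER-associated degradation, had an unadjusted p under 0.05 for feed G above feed B (difference 1.36, SE 0.28, limma, adjusted p = 0.417) and above feed K (0.88, SE 0.28, limma, adjusted p = 0.96), and for both without the 3 mice high in Fabp6 (0.99 and 0.90). P4hb, a disulfide isomerase, was under the same limit for feed G below feed K (-0.52, SE 0.22, limma, adjusted p = 0.96). So was Hyou1, an ER HSP110 relative, for feed G below feed B (-0.76, limma, adjusted p = 0.841). Without the 3 mice high in Fabp6 these differences were -0.46 and -0.51.

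Clock genes are given because the time of sampling was not recorded. Of 12 tested, none passed an adjusted p of 0.05 over the 3 feeds and 8 (Hlf among them, which was detected on no feed B array) had an unadjusted p under 0.05, against 5.37% of all genes tested. Dbp had log2 signals of 10.56, 12.46 and 9.98 on feed B, 12.69, 13.14 and 13.57 on feed K, and 13.99, 13.46 and 12.73 on feed G. All feed B mice lay below all others. Its difference of feed G from feed B was 2.39 (SE 0.62, limma, adjusted p = 0.54), but 1.27 (limma, adjusted p = 0.328) without the 3 mice high in Fabp6. Its difference of feed G from feed K, where Hsp105 and Dnajb1 differed most, was 0.26 (limma, adjusted p = 0.983). Arntl, Nfil3 and Nr1d1 did differ between feed G and feed K at an unadjusted p under 0.05 (-1.35, -0.54 and -0.88, and -0.86, -0.46 and -0.95 without the 3 mice high in Fabp6). The part of the time of sampling in the members' values was not tested.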

How the data were processed

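The authors deposited 1 scanner table per array with a background-corrected signal intensity, an assay-normalised signal, a signal-to-noise score and a flag per probe, and a series table, whose 297108 values equalled the assay-normalised signals. RMA is named, without a role, in the submitters' processing notes.

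Spots with a flag above 5000 were set to missing, the background-corrected signals were quantile-normalised over the 9 arrays and turned to log2, and probes with the same symbol were averaged. Genes detected (signal-to-noise ratio of at least 3) on at least 3 arrays entered limma 3.58.1 (R 4.3.3; all 3 feeds in 1 fit, Benjamini-Hochberg adjustment over 9652 genes, threshold 0.05), which was tested on simulated data. The exact permutation tests (two-sided) ran in Python 3.11.15 with scipy 1.17.1, pandas 2.3.3 and numpy 2.4.6. Symbols were updated and promoters taken from RefSeq tables (GRCm38.p6), and all 58 members matched. The number of arrays limits the precision.

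Genes named are the core members of each class, those with the smallest p, those with the smallest and largest SD, members whose probes disagreed most and those of the planned pairs. Of 11 pairs, 2 needed Hspa1b and were not computed. The 7 members without overlap between feeds G and K were picked out after their values were seen, as were Osp94 and Stch. So were Hspa4 and Hspa9a, as examples of shared low mice. The restriction of counts to genes detected in every feed was likewise added later. The members and lists were chosen with earlier results of these data known. Protein sequences were not analysed here.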

Additional observations from a re-analysis of the deposited data

Results flagged for a closer look

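The values of the 9 mice of each of the 38 members detected on all arrays were searched for a mouse far from the rest (its gap to the nearest mouse divided by the whole range, against Dixon's 95% limit; about 1 gene in 20 passes by chance, which is 1.9 of 38). A single value passed, that of Hspa8 in feed K mouse 4. The gap was 0.577 of the range: its log2 signal was 6.93, and the other 8 mice lay between 8.51 and 9.67. The Hspa8 probe was detected on this array. Groups of 3 mice were too small for this test.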

How the results depend on the processing

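No member passed an adjusted p of 0.05 in any of the 4 feed tests under any alternative, including each mouse left out in turn. Median scaling of the arrays moved the median difference of all genes from 0.06 to 0.53 for feed G against feed B, from 0.05 to 0.41 for feed K against feed B and from -0.01 to 0.11 for feed G against feed K, and 44, 42 and 37 of 46 members were then higher, against 27, 26 and 27 under quantile normalisation. Read against these shifts, the members' medians were 0.56, 0.36 and 0.19.

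The number of members at an unadjusted p under 0.05 depended on the scaling. Over the 46 members tested, which here include Hspa5bp1 (detected on feed G alone), it was 3 over the 3 feeds, 1 for feed K against feed B, 1 for feed G against feed B and 4 for feed G against feed K. Under median scaling it was 5 over the 3 feeds, 3 for feed K against feed B, 10 for feed G against feed B and 2 for feed G against feed K. With the authors' values of the series table it was 5 for feed G against feed B and 2 for feed G against feed K. With no filter on detection it was 2 for feed K against feed B, and with genes detected on all arrays 2 for feed G against feed B. With the 3 mice high in Fabp6 left out, an alternative chosen after seeing the data in which feed B keeps 1 mouse assumed to vary like the others, it was 3 for feed K against feed B and 2 for feed G against feed B. Leaving out each mouse gave 1 to 5 members over the 3 feeds, 0 to 2 for feed K against feed B, 0 to 4 for feed G against feed B and 2 to 5 for feed G against feed K. The difference of Hsp105 between feeds G and K lay between 1.70 and 2.71 when each mouse was left out, and that of Dnajb1 between 0.73 and 1.31.

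The median SD of the 38 members was 0.45 under median scaling, 0.37 with the series table, 0.31 over members detected on at least 3 arrays and 0.25 without the 3 mice high in Fabp6, and 0.25 to 0.28 with 1 mouse left out. The share within a 2-fold range was 23.7%, 39.5%, 54.3% and 78.9% in the same order (24.8%, 36.7%, 37.2% and 75.1% of all genes), and 65.8% to 73.7% with 1 mouse left out. With the detection limit raised from 3 to 5, 35 members were detected on all arrays.

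Under median scaling r was 0.93 for Hspa5 with Hsp90b1, 0.84 for Hspa5 with Dnajb11, 0.76 for Hsp90aa1 with Hsph1, 0.88 for Cct2 with Cct5 and 0.74 for Hspb1 with Des, all past the adjusted threshold, and r changed sign for Cct3 with Cct4 (0.74), Hspb8 with Actg2 (0.67) and Hspa8 with Dbp (0.11). With the series table r was 0.79 for Hspa5 with Hsp90b1, 0.38 for Cct3 with Cct4, 0.42 for Hspb8 with Actg2 and 0.03 for Hspa8 with Dbp. With feed means subtracted it was 0.76 for Hspa5 with Hsp90b1, 0.82 for Hspa5 with Dnajb11, 0.90 for Cct2 with Cct5 and 0.09 for Hspb8 with Actg2. Without the 2 farthest mice it was 0.55 for Hspd1 with Hspe1, -0.48 for Hspb1 with Des and 0.10 for Hspa8 with Dbp, and without the 3 mice high in Fabp6 0.83 for Hspd1 with Hspe1, no longer past the adjusted threshold (p = 0.225, exact permutation test). With 1 mouse left out r ran from 0.69 to 0.92 for Hspd1 with Hspe1 (6 of 9 then missed the threshold), from 0.52 to 0.81 for Hspa5 with Hsp90b1, from 0.53 to 0.90 for Cct2 with Cct5, from -0.82 to -0.40 for Cct3 with Cct4, from -0.39 to 0.13 for Hspb8 with Actg2, from -0.17 to 0.57 for Hspb1 with Des and from -0.39 to 0.14 for Hspa8 with Dbp. The causes were not tested.

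No paired analysis was possible because the feeds share at most 1 mouse number. A batch block was not run, since the labels and files name no batch. Undetected probes have only a bound, which limits the 8 members detected on 3 to 8 arrays.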
